A study of Homo sapiens with 5 samples.

Results

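Methylated promoter CpG islands of human iPSCs were described from RRBS, a bisulfite sequencing method that enriches CpG-rich DNA with a restriction enzyme cutting at CCGG. The genome was divided into windows of 1000 bases, and the DNA methylation level of a window, its β-value, is the share of cytosine calls at CpG sites that remained unconverted. A window was taken when the deposited annotation placed it both in a CpG island and in a promoter, its coverage was at least 30 calls in each of the 5 libraries, and the mean of the 5 β-values was at least 70%. This left 2498 windows of 16060 promoter CpG island windows with that coverage (15.6%) and of 288391 windows in all. The 2498 windows lay in 2247 islands and were assigned to 2259 genes. Since the β-values of these libraries chose the windows, their high level is a description and not a result.

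The cells were the 201B7 line, an established human iPSC line with the genotype given as WT, grown without feeder cells in mTeSR1 medium. They were exposed for 48 h to 0.1% DMSO (the vehicle control, which the dissolved chemicals share), 1 nM etoposide, a topoisomerase II poison, 1 µM propyl gallate, an antioxidant, 1 µM theophylline, a phosphodiesterase inhibitor and adenosine receptor antagonist, or 10 nM 5-aza-dc, a nucleoside that traps DNA methyltransferases. Each condition had 1 library of 1 line, so a difference between conditions could not be set against a spread between replicates, and no test between conditions was made. The 95% intervals given cover counting error only, as calls from PCR copies of a fragment are not independent molecules. Depth in the 2498 windows was similar, with a median of 1037.5 calls per window in the vehicle control and 873 to 959.5 in the other 4 libraries.

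CpG islands are stretches of DNA rich in CpG that cover most promoters of broadly used genes and are as a rule free of methylation, whatever the activity of the gene. A smaller set is methylated in somatic and pluripotent cells. It includes genes of the germline, whose promoters are methylated around implantation and stay silent outside germ cells, the methylated allele of imprinted genes, and islands within copies of genes such as pseudogenes. DNMT1 copies the methylation onto the new strand after replication, and 5-aza-dc interferes with this step.

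Promoter sequences are shown for 5 genes whose start lay in a methylated window, followed by 2 germline genes whose start lay in an unmethylated one, so that the CpG content of both kinds can be read. They are RefSeq promoters of GRCh38.p14, 250 bases before to 50 after the gene start, written 5′ to 3′ on the strand of the gene, with each CpG in capitals.
SYCP3, chr12:101739413-101739712, minus strand: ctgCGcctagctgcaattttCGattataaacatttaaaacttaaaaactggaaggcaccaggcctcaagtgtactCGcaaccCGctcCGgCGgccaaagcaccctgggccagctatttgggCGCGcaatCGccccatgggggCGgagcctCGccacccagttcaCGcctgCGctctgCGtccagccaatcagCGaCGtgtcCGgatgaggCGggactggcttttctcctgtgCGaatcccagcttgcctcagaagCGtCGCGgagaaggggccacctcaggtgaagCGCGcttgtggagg
TDRD12, chr19:32719517-32719816, plus strand: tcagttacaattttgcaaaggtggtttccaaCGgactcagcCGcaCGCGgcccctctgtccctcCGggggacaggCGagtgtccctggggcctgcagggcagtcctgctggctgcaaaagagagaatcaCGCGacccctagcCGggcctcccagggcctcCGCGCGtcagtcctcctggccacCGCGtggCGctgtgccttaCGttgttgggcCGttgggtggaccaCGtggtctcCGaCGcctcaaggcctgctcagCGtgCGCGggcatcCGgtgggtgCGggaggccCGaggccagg
KHDC3L, chr6:73362408-73362707, plus strand: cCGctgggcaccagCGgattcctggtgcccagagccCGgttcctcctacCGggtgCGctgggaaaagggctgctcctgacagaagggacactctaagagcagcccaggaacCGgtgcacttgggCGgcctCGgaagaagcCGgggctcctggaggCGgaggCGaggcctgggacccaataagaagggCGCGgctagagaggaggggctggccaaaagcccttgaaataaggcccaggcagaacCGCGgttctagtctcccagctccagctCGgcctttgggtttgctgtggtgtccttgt
SLC25A31, chr4:127730150-127730449, plus strand: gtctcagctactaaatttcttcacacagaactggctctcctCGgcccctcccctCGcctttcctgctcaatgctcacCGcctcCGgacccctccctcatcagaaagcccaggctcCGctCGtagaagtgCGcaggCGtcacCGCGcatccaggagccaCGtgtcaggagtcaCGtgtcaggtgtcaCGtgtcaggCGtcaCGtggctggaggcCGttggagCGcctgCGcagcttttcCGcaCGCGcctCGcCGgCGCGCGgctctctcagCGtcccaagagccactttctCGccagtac
ZFP57, chr6:29681103-29681402, minus strand: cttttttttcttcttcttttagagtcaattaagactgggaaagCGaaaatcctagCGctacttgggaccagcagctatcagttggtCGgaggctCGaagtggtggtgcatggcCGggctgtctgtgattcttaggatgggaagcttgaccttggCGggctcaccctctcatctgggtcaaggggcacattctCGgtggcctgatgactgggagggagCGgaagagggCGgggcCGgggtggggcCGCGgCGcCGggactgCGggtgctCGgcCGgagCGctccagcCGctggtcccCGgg
MAEL, unmethylated, chr1:166975332-166975631, plus strand: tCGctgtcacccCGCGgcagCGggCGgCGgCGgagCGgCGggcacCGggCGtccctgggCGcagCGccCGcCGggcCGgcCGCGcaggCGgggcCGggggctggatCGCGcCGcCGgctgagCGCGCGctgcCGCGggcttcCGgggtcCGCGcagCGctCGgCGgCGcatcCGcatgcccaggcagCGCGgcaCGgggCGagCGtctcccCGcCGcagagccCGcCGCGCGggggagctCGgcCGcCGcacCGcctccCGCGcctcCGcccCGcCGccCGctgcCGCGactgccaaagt
DMC1, unmethylated, chr22:38570134-38570433, minus strand: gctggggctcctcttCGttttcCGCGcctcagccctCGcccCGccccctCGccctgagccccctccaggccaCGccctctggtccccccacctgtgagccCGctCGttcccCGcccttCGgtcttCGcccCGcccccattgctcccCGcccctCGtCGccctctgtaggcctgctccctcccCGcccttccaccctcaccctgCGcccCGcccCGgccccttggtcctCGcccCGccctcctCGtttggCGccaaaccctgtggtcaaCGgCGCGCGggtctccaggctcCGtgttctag

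The 5 methylated promoters held between 16 CpGs (KHDC3L) and 28 (SLC25A31), with 24 in SYCP3, 26 in TDRD12 and 20 in ZFP57. DMC1 held 29 and MAEL 60. SLC25A31, which was methylated, and DMC1, which was not, thus carried nearly the same number of CpGs, whereas MAEL carried more than any of the others shown.

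Methylation of promoter CpG islands was strongly bimodal. Of the 16060 windows, 11606 had a mean β-value under 10%, 1956 lay between 10% and 70%, and 2498 were at 70% or above. Within the methylated windows the mean β-value was 90.01% in the vehicle control, 90.5% with etoposide, 90.4% with propyl gallate, 90.8% with theophylline and 88.7% with 5-aza-dc. The medians were higher, from 90.8% with 5-aza-dc to 92.9% with theophylline. Of the 2498 windows, 239 had a mean of 70% to 80%, 603 of 80% to 90%, 1225 of 90% to 95% and 431 of 95% or more. Just inside the threshold were windows of DEDD, ENSG00000285952 and ENSG00000266673, and just outside it those of FAM151B, ENSG00000279561 and VKORC1. The DEDD window was at 75.9% in the vehicle control, 71.0% with etoposide, 64.6% with propyl gallate, 71.2% with theophylline and 67.3% with 5-aza-dc. In the VKORC1 window it was between 68.6% and 71.7% in the 5 libraries. Both of these windows thus had libraries above and below 70%.

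**Figure D1:**
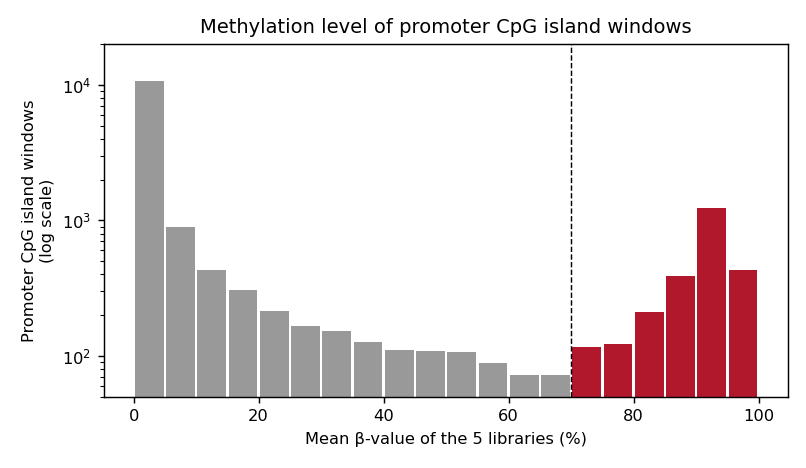
Number of promoter CpG island windows (y axis, log scale) by the mean β-value of the 5 libraries (x axis, in bins of 5 percentage points), with a dashed line at 70%. The 2498 windows at 70% or above (red) form a peak at 90% to 95% (1225 windows), apart from the 11606 windows under 10%.

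In 2349 of the 2498 windows (94.0%) the β-value was at least 70% in every library, a share that the choice by the mean of these libraries largely sets. The median range over the 5 libraries was 5.15 percentage points. The range was at most 5 percentage points in 1193 windows (47.8%), at least 10 in 394 (15.8%) and at least 25 in 28. Among the highest was the window of ENSG00000263729, on chromosome 17, which was at 100% in 4 libraries and at 97.6% with theophylline.

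Pseudogenes made up a large part of the methylated windows. The gene assigned to the window had a type in the annotation for 2398 of the 2498 windows, and was protein coding in 1021 and a lncRNA in 633. A pseudogene of some type was assigned in 587 (23.5%). Processed pseudogenes, which are copies of spliced mRNA without the promoter of their parent gene, were methylated in 391 of their 512 promoter CpG island windows (76.4%). For lncRNAs this was 633 of 3592 (17.6%), and for protein coding genes 1021 of 10782 (9.47%). Between these lay rRNA pseudogenes (15 of 21, 71.4%), snRNAs (21 of 39, 53.8%), unprocessed pseudogenes (69 of 143, 48.3%) and miRNAs (41 of 113, 36.3%). The share was lower for transcribed unprocessed pseudogenes (55 of 219, 25.1%) and for transcribed unitary pseudogenes (6 of 39, 15.4%), beside 15.6% over all types. A high share was thus not common to every type of pseudogene. The names that occurred most often were Y_RNA (12 windows), Metazoa_SRP (9) and 5_8S_rRNA (5), all repeated small RNA genes, and 134 names occurred in 2 windows each. Reads from near-identical copies, as pseudogenes, repeated RNAs and multigene families are, can be split or lost in alignment, so their levels are less certain than those of unique sequence.

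**Figure D2:**
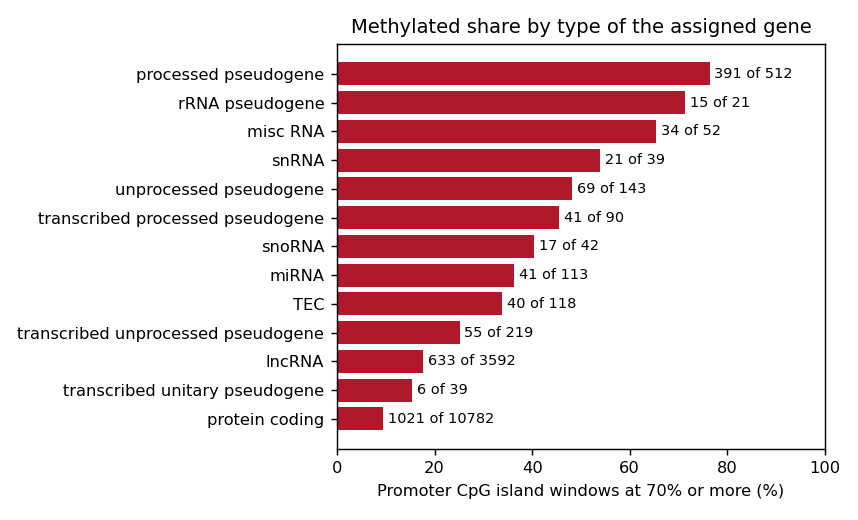
Share of promoter CpG island windows with a mean β-value of 70% or more (x axis, %), by the type of the assigned gene (y axis, types with at least 20 windows), with counts beside each bar. Processed pseudogenes (76.4%) stand at the top and protein coding genes (9.47%) at the bottom.

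The level itself differed little between the types. In the vehicle control the mean was 88.6% over the protein coding windows, 90.2% over those of lncRNAs and 91.9% over those of processed pseudogenes. By chromosome, the methylated share of promoter CpG island windows ran from 10.2% on chromosome 11 to 29.4% on chromosome 21 among the autosomes, with 24.2% on chromosome 16 and 23.3% (275 of 1178) on chromosome 19. On the X chromosome it was 17.8% (85 of 478).

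Many of the windows lay at the edge of an island or away from the start of a gene. An overlap of at least 500 bases with the island was found for 1397 of them, compared with 9251 of the 11606 unmethylated windows (79.7%). Where the overlap was a single base, 126 of 252 windows were methylated, and where it was the full 1000 bases, 276 of 3950 (6.99%). The deposited start of the assigned gene lay in the window for 1265 of the 2498. A start annotated by RefSeq lay in 364 of them, which is 4.42% of the 8242 promoter CpG island windows that hold such a start. Among windows without a RefSeq start 2134 of 7818 were methylated (27.3%). The promoter label of the deposited annotation thus also covered many windows without an annotated start.

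Neighbouring windows, whatever their annotation, were also read. Of the 2030 methylated windows with a neighbouring window on either side, 631 (31.1%) had a neighbour under 10%, and in 1162 (57.2%) every neighbour was at least 70%. For protein coding genes 514 of 921 windows (55.8%) had a neighbour under 10%, compared with 13 of 269 (4.83%) for processed pseudogenes. Of the 1474 islands with a methylated window and at least 2 windows in the table, 609 (41.3%) also held a window under 10%. Of the 2259 genes, 444 (19.7%) also had a promoter CpG island window under 10%. The methylated window at a protein coding gene thus often lay next to an unmethylated window, and that at a processed pseudogene seldom did. Whether the neighbour lay in the same island was not counted by gene type.

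CpG content was lower in promoters that lay in methylated windows. RefSeq promoters lying wholly in a methylated window (297) had a median of 19 CpGs in 300 bases, a median GC content of 62.3% and a median observed over expected CpG, the number of CpGs relative to that from the base content, of 0.66. Promoters lying in windows under 10% (7027) had medians of 29 CpGs, 68.0% and 0.87. Those in windows of 10% to 70% (620) lay between, with 26 CpGs, 66.3% and 0.80. An observed over expected CpG of at least 0.6, a usual criterion of an island, was met by 57.9% of the promoters in methylated windows and 93.5% of those in unmethylated ones. At least 1 CCGG was present in 82.8% and 94.99%. RRBS reads DNA near CCGG, so the calls of a window come from around such sites. The promoters had to lie in the window, and whether they lay in its island was not read. Of windows with a RefSeq start, 238 of 364 methylated ones overlapped the island by at least 500 bases, against 6185 of 7165 under 10%. The part of this overlap in the lower CpG content was not tested.

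**Figure D3:**
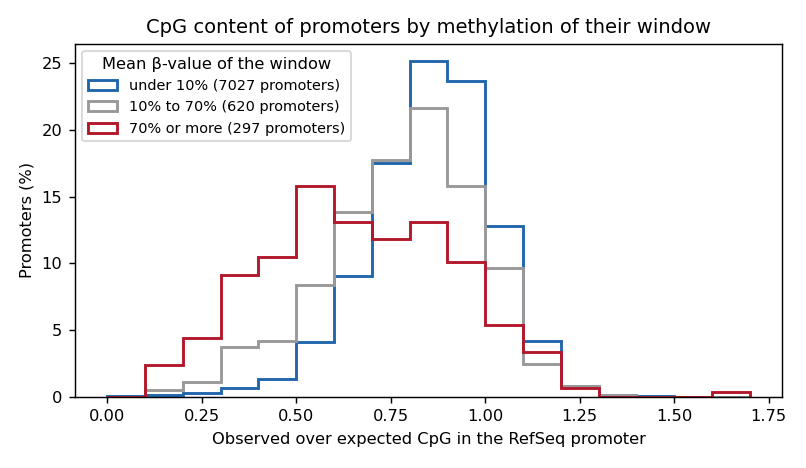
Observed over expected CpG of RefSeq promoters (x axis, in bins of 0.1) as a share of the promoters in each class (y axis, %), for promoters lying in windows with a mean β-value under 10% (blue), of 10% to 70% (grey) and of 70% or more (red). The medians are 0.87, 0.80 and 0.66.

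Short motifs were searched on both strands of the same promoters. GGGCGG, the core of the site bound by SP1, was present in 51.2% of the promoters in methylated windows, 78.7% of those in unmethylated windows and 44.9% of all 34943 RefSeq promoters. TATAAA was present in 8.42%, 4.08% and 11.6%. CACGTG, the E-box, was found in 11.8%, 9.92% and 7.23%, and CCAAT in 28.6%, 33.6% and 34.6%. TTCCCGC, an E2F motif, was found in 12.1%, 12.0% and 6.54%. TGACGTCA, the cAMP response element, was found in 2.36%, 2.96% and 1.84%, and the palindromic NRF1 motif in 1.68%, 2.46% and 1.23%. All of these motifs except TATAAA and CCAAT hold a CpG, and CACGTG and TGACGTCA read the same on both strands.

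Germline genes were among the methylated windows. Of 51 promoter CpG island windows of 44 germline and meiosis genes, 26 windows of 23 genes were methylated (51.0%), compared with 15.6% of all promoter CpG island windows, and 16 were under 10%. The synaptonemal complex, which holds paired chromosomes together in meiosis, was represented by SYCP1 and SYCP3. The SYCP3 window was at 94.8% in the vehicle control, 94.7% with etoposide, 97.0% with propyl gallate, 97.2% with theophylline and 92.8% with 5-aza-dc. In the SYCP1 window it was between 88.9% in the vehicle control and 91.6% with 5-aza-dc. Neither varied by more than 5 percentage points.

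The piRNA pathway, which silences transposons in the germline, was represented by PIWIL1, PIWIL3, TDRD6, TDRD12 and TEX15. TDRD12 had the most calls of these and was at 91.2% in the vehicle control, 90.7% with etoposide, 90.9% with propyl gallate, 92.9% with theophylline and 89.9% with 5-aza-dc. PIWIL3 was at 98.2%, 96.1%, 97.5%, 97.3% and 96.9% in the same order. TDRD6 was at 100% in the vehicle control and with etoposide, 79.1% with propyl gallate, 94.9% with theophylline and 88.6% with 5-aza-dc, from 34 to 69 calls per library. TDRD6 had few calls, but it was among the germline windows lower with propyl gallate by the Fisher's exact test described below.

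Genes of meiotic recombination and telomere attachment were SHOC1, C1orf146, SPATA22, MEI1, TEX11 and TERB1. TEX11, on the X chromosome, was between 93.5% with 5-aza-dc and 95.8% with etoposide. TERB1 was at 88.1% in the vehicle control and 92.0% with 5-aza-dc. Oocyte and early embryo genes were KHDC3L and OOEP, both of the subcortical maternal complex, NLRP2 and DPPA3. KHDC3L was at 94.9%, 95.2%, 94.8% and 94.5% in the vehicle control and with etoposide, propyl gallate and theophylline, and at 91.0% with 5-aza-dc. OOEP was at 95.2%, 95.7%, 95.1% and 92.9% in these libraries and at 89.1% with 5-aza-dc. For both, the 5-aza-dc library was the lowest of the 5. DPPA3 was between 79.1% with 5-aza-dc and 90.9% with theophylline, in a window that overlapped its island by 1 base. The windows of SHOC1, C1orf146, SPATA22, OOEP and NLRP2 held the deposited start of the gene but no RefSeq start. SLC25A31, a mitochondrial ADP/ATP carrier of the testis, had the most calls of the methylated germline windows in the vehicle control and lay between 93.6% and 96.1%.

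Not all germline promoters were methylated. MAEL, of the piRNA pathway, was between 0.24% and 0.682% in the 5 libraries, and DMC1, the meiotic recombinase, between 0.472% and 1.86%. RAD21L1 and REC8, subunits of meiotic cohesin, were under 10% as well, at means of 0.877% and 1.01% for the RAD21L1 windows and 4.34% for REC8. MOV10L1, a piRNA helicase, was intermediate at a mean of 46.0%, as was SYCE2 of the synaptonemal complex at 61.2%. The members of the piRNA pathway and of the synaptonemal complex were thus not methylated as a whole.

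**Figure D4:**
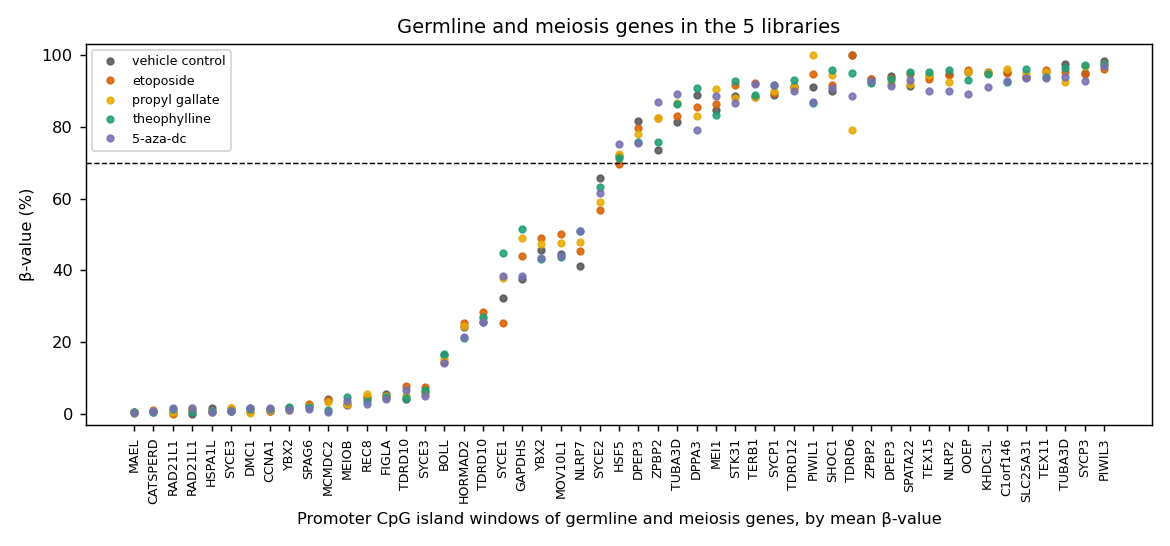
β-value (y axis, %) in each of the 5 libraries (coloured points) for the 51 promoter CpG island windows of germline and meiosis genes, ordered by mean (x axis), with a dashed line at 70%. The 16 windows on the left lie under 10% and the 26 on the right at or above 70%, and in most windows the 5 libraries lie close together.

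Among other lists of genes, clustered protocadherins, cell surface proteins chosen variably by neurons, were methylated in 7 of 14 windows. PCDHGA5 was at 95.1% in the vehicle control, 96.2% with etoposide, 96.6% with propyl gallate, 96.8% with theophylline and 94.8% with 5-aza-dc. Zinc finger genes were methylated in 48 of 368 windows (13.0%), near the 15.6% over all. ZFP57, whose protein guards imprinted methylation, was the zinc finger window with the most calls, at 96.1%, 96.7%, 96.0%, 96.8% and 95.5% in the same order. Developmental transcription factors were methylated in 6 of 221 windows (2.71%), and 191 were under 10%. Both POU5F1 windows are among these 6, since the list took genes by name. The lists of cancer-testis families (4 of 5 windows) and olfactory receptors (both windows) were small, and none of 6 keratin windows was methylated.

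Imprinted genes, where methylation of 1 of the parental alleles would give a β-value near the middle, were methylated in 4 of 37 windows and under 10% in 21. MCTS2, an imprinted retrogene, had a window at 77.2% in the vehicle control, 75.9% with etoposide, 74.5% with propyl gallate, 79.4% with theophylline and 73.4% with 5-aza-dc. The next window of MCTS2 was at 95.8% to 96.3% in the 5 libraries. Haematopoietic and immune genes were methylated in 4 of 13 windows, in GZMM, LTA and LAT. LTA, a lymphocyte cytokine, was between 77.5% and 78.7% in all libraries. Of 18 windows of genes that vary after reprogramming, 2 were methylated, of DPPA3 and CTSF.

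Genes of pluripotency, which were meant to check the label of the line, had 12 promoter CpG island windows, of which 5 were under 10% and 3 were methylated. Of all 16060 promoter CpG island windows, 11606 were under 10% and 2498 were methylated. Unmethylated were LIN28A, PRDM14, DNMT3B and the window with the start of UTF1, at means of 0.64% to 1.88%. L1TD1 was at a mean of 13.7%, and the other UTF1 window at 15.7%. ZFP42 was intermediate, at 60.9% in the vehicle control, 56.3% with etoposide, 44.3% with propyl gallate, 59.96% with theophylline and 37.2% with 5-aza-dc, so that 2 libraries lay well below the other 3. The methylated windows were 1 of TERT and 2 of POU5F1. The TERT window lay next to the one with its start, which was at a mean of 23.9%. The POU5F1 windows, at means of 85.7% and 94.3%, lay at and next to the start of the gene as deposited, at which RefSeq has none, so they do not measure the RefSeq promoter of POU5F1. NANOG and SOX2 were not among the windows with that annotation and coverage. Methylation is no measure of expression. As most promoter CpG island windows were under 10% in any case, the low windows of these genes could not check the label.

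The 4 chemicals were compared with the vehicle control over the 2498 windows. The mean β-value was 0.449 percentage points higher with etoposide (95% counting interval 0.374 to 0.523), 0.389 higher with propyl gallate (0.316 to 0.461) and 0.793 higher with theophylline (0.721 to 0.865). After 5-aza-dc it fell by 1.32 percentage points relative to the vehicle control (interval of the difference -1.40 to -1.24). Between windows the differences had an SD of 4.24, 4.25, 4.0 and 4.95 percentage points, and counting alone would give 1.89, 1.85, 1.84 and 1.97. The spread between windows was thus larger than that counting SD, and larger than the mean shift, in every comparison. The 4 comparisons share the vehicle control library.

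The 5-aza-dc library had the lowest β-value of the 5 in 1044 of the 2498 windows (41.8%), and theophylline the highest in 739 (29.6%). Relative to the vehicle control the β-value was lower with 5-aza-dc in 1623 windows (65.0%), where 58.4% of all 288391 windows were lower. It was higher with etoposide in 1406 (56.3%, background 54.9%), with propyl gallate in 1387 (55.5%, background 55.3%) and with theophylline in 1501 (60.1%, background 59.9%). For these 3 chemicals the methylated promoter CpG islands were near the background. Since the rule used the libraries compared, windows were also chosen by the 3 libraries outside each comparison, and the mean difference was then -1.35 percentage points for 5-aza-dc, 0.442 for etoposide, 0.783 for theophylline and 0.396 for propyl gallate.

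The differences were also read by the level of methylation. As a window that falls in a library also falls in the mean of the 5, the level was taken from the 3 libraries outside each comparison. With 5-aza-dc the difference was then -2.26 percentage points in windows of 70% to 80% (interval -2.61 to -1.91), -1.96 at 80% to 90% (-2.16 to -1.77), -1.11 at 90% to 95% (-1.21 to -1.004) and -0.828 at 95% or more (-0.954 to -0.702). The intervals of the lower 2 bands overlapped each other, and both lay below those of the higher 2. In the other windows of the table at these levels, the differences were -1.60, -1.21, -0.944 and -0.804 percentage points. The counting intervals of the promoter CpG islands and of the other windows did not overlap in the lower 3 bands and overlapped in the highest. Such intervals leave out the spread between windows. Over the 2498 windows its SD was 4.95 percentage points with 5-aza-dc, against 1.97 from counting. Whether counting intervals overlap thus does not decide if the bands or the 2 kinds of window differ. The promoter CpG island windows had more calls, with a median of 1025 in the vehicle control against 426 where the mean of the 5 libraries was 80% to 90%, and the part of depth in the difference was not tested.

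With theophylline the difference in each band was smaller than in the other windows, for example 0.762 against 1.05 percentage points at 90% to 95%. With etoposide it was -0.0037 percentage points at 95% or more (interval -0.159 to 0.152), against 0.455 in the other windows. At 80% to 90% the order was reversed, with 0.838 against 0.741. It was smaller than in the other windows at 70% to 80% (0.473 against 0.614) and at 90% to 95% (0.402 against 0.605). With propyl gallate it was 0.195 at 70% to 80% (-0.121 to 0.512), against 0.627, and with the level taken from all 5 libraries it was -0.29, so that its direction there depends on how the level is set.

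**Figure D5:**
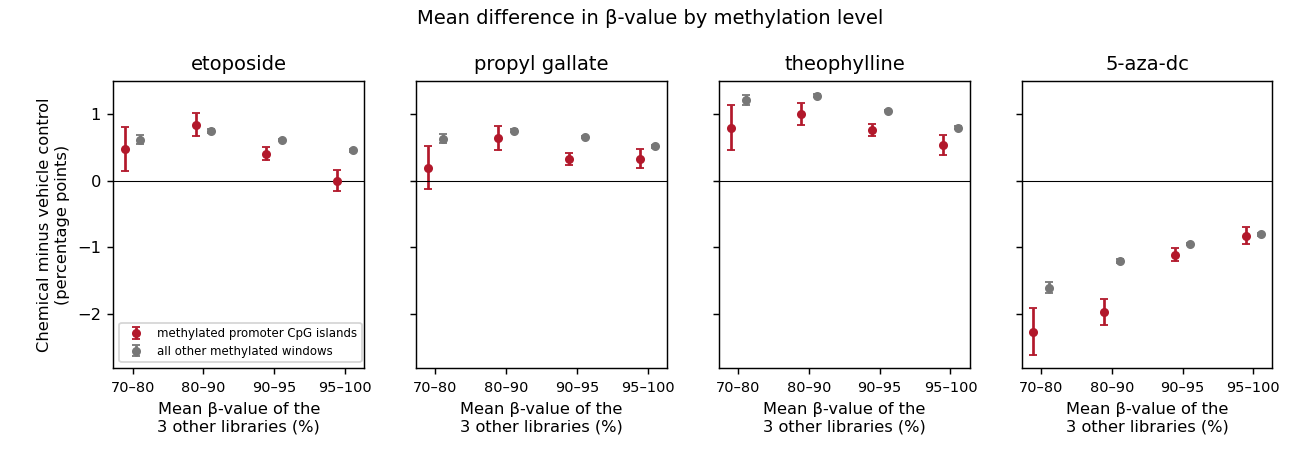
Mean difference in β-value between each chemical and the vehicle control (y axis, percentage points) by the mean β-value of the window in the 3 libraries outside the comparison (x axis, %), for methylated promoter CpG islands (red) and all other methylated windows (grey), with 95% counting intervals. With 5-aza-dc the red points run from -2.26 at 70% to 80% to -0.828 at 95% or more.

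Compared with other classes of window, the intermediate promoter CpG islands differed most with 5-aza-dc, by -3.18 percentage points, and the unmethylated ones least, by -0.227. Relative to the level in the vehicle control the order changed, to -12.6% for the unmethylated, -10.3% for the intermediate and -1.47% for the methylated windows. The unmethylated windows had a low level, with means of 1.80% in the vehicle control and 1.58% with 5-aza-dc, so a small difference there gives a large relative one. For scale, the 9 mitochondrial windows were at 0.524% in the vehicle control and 0.746% with 5-aza-dc. Methylated CpG islands outside promoters differed by -1.06 and methylated promoters outside islands by -1.13. Within the methylated promoter CpG islands, the 364 windows with a RefSeq start differed by -1.70 (interval -1.90 to -1.49) and the 2134 without by -1.26 (-1.34 to -1.17). The former were also slightly less methylated in the vehicle control, at 89.1% against 90.2%. In the 276 windows lying wholly in an island the difference was -1.66 with 5-aza-dc (-1.85 to -1.46) and -0.116 with propyl gallate (-0.301 to 0.0692), so that the small rise with propyl gallate was not seen there. Windows with a neighbour under 10% differed by -1.60 (-1.77 to -1.44), and those without by -1.30 (-1.40 to -1.20), from 87.4% and 90.9% in the vehicle control. Windows of lncRNAs differed by -1.66, those of protein coding genes by -1.28 and those of processed pseudogenes by -0.823 percentage points. The 69 windows of unprocessed pseudogenes differed by -2.33, the 41 of miRNAs by -2.12 and the 6 of transcribed unitary pseudogenes by -4.41. Other small types differed less, such as the 41 windows of transcribed processed pseudogenes (-0.646) and the 21 of snRNAs (-0.21). No interval was computed by type. Over all 2498 windows the SD between windows was 4.95 percentage points, so types with few windows are not set apart by these values.

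Few single windows passed the test between libraries. Fisher's exact test on the calls of each window, two-sided, was adjusted by Benjamini-Hochberg over all 288391 windows, and a window was called where the adjusted p was under 0.01 and the libraries lay 25 or more percentage points apart. This test compares 2 libraries and not 2 conditions. After 5-aza-dc 5 of the 2498 windows were called lower (0.235% of all windows were) and 4 higher (0.0742%). After etoposide 3 were called lower (0.0908%) and 4 higher (0.0992%), with propyl gallate 3 lower (0.0829%) and 3 higher (0.0936%), and with theophylline 2 lower (0.069%) and 2 higher (0.106%). These are counts of 5 or fewer of the 2498 windows.

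Where 10 percentage points were enough, 78 windows were lower with 5-aza-dc (3.12%, background 2.76%) and 21 higher (0.841%, background 0.875%). Etoposide then had 24 lower (background 0.955%) and 30 higher (background 1.36%), propyl gallate 23 lower (background 0.877%) and 26 higher (background 1.34%), and theophylline 17 lower (background 0.68%) and 33 higher (background 1.59%). The shares of the 2498 windows were 0.681% to 1.32% for these 3 chemicals, near the background. With no minimum difference 463 windows were lower with 5-aza-dc (18.5%, background 10.4%) and 125 higher (5.00%, background 3.55%). Etoposide had 148 lower (5.92%, background 3.74%) and 237 higher (9.49%, background 6.38%), propyl gallate 147 lower (5.88%, background 3.71%) and 242 higher (9.69%, background 6.55%), and theophylline 116 lower (4.64%, background 2.86%) and 291 higher (11.6%, background 8.13%). These shares exceeded the background in both directions and for every chemical, beside a deeper coverage than that of the other methylated windows, and the part of depth was not tested.

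The largest fall was at RAPGEF1, a guanine nucleotide exchange factor for Rap GTPases. Its window, chr9:131740001-131741000 on hg38, holds a RefSeq start and 700 bases of the island. It was at 94.2% in the vehicle control (137 calls), 100% with etoposide (70), 98.3% with propyl gallate (108), 98.1% with theophylline (91) and 27.5% with 5-aza-dc (246, Wilson 95% interval 22.4% to 33.5%). The 4 other libraries lay together and the 5-aza-dc library far below them, with an adjusted p of 2.63e-36 by Fisher's exact test. The processed pseudogene TLE1P1 (chrX:65408001-65409000) was at 88.8%, 97.4%, 88.7% and 95.1% in the first 4 libraries and at 52.1% with 5-aza-dc (adjusted p = 1.51e-07, Fisher's exact test). TLK2P1 (chr17:34040001-34041000), also a processed pseudogene, was at 88.9%, 75.2%, 72.6% and 79.5% and at 55.0% with 5-aza-dc, so that it was lower than in the vehicle control after every chemical. C6orf141 was at 89.1%, 90.4%, 76.6%, 82.7% and 58.7%.

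In 3 of the windows with large differences it was the vehicle control that stood apart. The pseudogene ENSG00000261263 (chr16:32650001-32651000) was at 62.6% in the vehicle control and at 98.8%, 98.0%, 95.1% and 97.7% with etoposide, propyl gallate, theophylline and 5-aza-dc. HMGCLL1 (chr6:55579001-55580000), an enzyme of ketone body synthesis, was at 63.0% in the vehicle control and at 92.6%, 91.3%, 80.4% and 96.0% in the other 4. TKT (chr3:53256001-53257000), the transketolase of the pentose phosphate pathway, was at 67.7% in the vehicle control and at 94.2%, 100%, 88.0% and 98.3%. Each of the 3 therefore appears among the largest rises of several chemicals, through 1 and the same library.

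Other windows differed after some chemicals. CCNB2 (chr15:59104001-59105000), a mitotic cyclin, was at 87.9% in the vehicle control, 96.4% with etoposide, 44.1% with propyl gallate, 68.9% with theophylline and 100% with 5-aza-dc, in a window that overlapped the island by 1 base. COQ10A (chr12:56266001-56267000), which binds coenzyme Q in mitochondria, was at 93.0%, 86.1%, 68.0%, 55.1% and 84.4% in the same order. MIR4522 (chr17:27293001-27294000), a miRNA gene, was at 93.4%, 67.2%, 78.4%, 65.0% and 91.1%. ENSG00000276919 was at 61.6% in the vehicle control and 59.0% with 5-aza-dc, and at 69.6%, 82.2% and 89.9% with etoposide, propyl gallate and theophylline. With etoposide alone the pseudogene ENSG00000261349 was high, at 95.3% against 60.3% to 67.6% in the other 4 libraries. With propyl gallate alone the pseudogene RARRES2P9 was low, at 56.6% (70 calls) against 90% to 95.8%. The order of the libraries thus differed from window to window.

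A single library lay at least 10 percentage points below each of the other 4 in 28 windows for 5-aza-dc (1.12%), where 1.44% of the 275188 windows with at least 30 calls did so. For propyl gallate this was 12 windows (0.48%, background 0.303%), for etoposide 9 (0.36%, background 0.362%), for theophylline 7 (0.28%, background 0.245%) and for the vehicle control 5 (0.2%, background 0.36%). A library lay above the other 4 by as much in 6 windows for etoposide (background 0.142%), in 2 for theophylline (background 0.156%) and in 2 for 5-aza-dc (background 0.097%), and in 0 for propyl gallate (background 0.113%) and the vehicle control (background 0.0687%).

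Within the lists, germline windows with 5-aza-dc were lower in 18 of 26, with a median difference of -1.77 percentage points, beside -1.18 over the 2498 windows. By Fisher's exact test with an adjusted p under 0.01 and no minimum difference, 5 of the 26 were lower and 3 higher, beside 18.5% and 5.00% of the 2498 windows and 10.4% and 3.55% of all windows. With etoposide 1 was lower and 2 higher, with propyl gallate 3 and 3, and with theophylline 1 and 4. Lower with 5-aza-dc were DPEP3 (81.5% in the vehicle control and 75.6% with 5-aza-dc), OOEP, KHDC3L, DPPA3 and the TUBA3D window with its start (97.3% and 93.7%). Higher with 5-aza-dc were TERB1, HSF5 (71.9% and 75.3%) and the other TUBA3D window (81.4% and 89.2%). TUBA3D, a tubulin of the testis, thus had neighbouring windows that differed in opposite directions, and it has near-identical copies. Among zinc finger windows 7 of 48 were lower with 5-aza-dc and 2 higher, and among protocadherins 1 of 7 in each direction, with a median difference of -1.59 and -1.20 percentage points. At the shares given for the 2498 windows, such counts do not set these lists apart.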

How the data were processed

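DNA methylation was measured by RRBS in 5 libraries of 201B7 iPSCs, 1 per condition. Per the paper's methods and the submitters' processing notes, the authors checked reads with FastQC (0.11.7), trimmed them with Trim Galore (0.5.0), aligned them with Bismark (0.20.0) to hg38, used SAMtools (1.9), and used methylKit (1.10.0) to sum CpG calls in windows of 1000 bases, scale coverage and merge libraries. The labels and the methods name different DNA extraction kits. The deposited counts of the vehicle control are whole, unscaled calls. Those deposited for the chemicals are scaled and rounded by the authors and were treated as a score. Factors of 1.21 (5-aza-dc), 1.18 (etoposide), 1.15 (theophylline) and 1.09 (propyl gallate) were worked back, and gave 99.9% or more of the deposited coverages again. The plan was to run Fisher's exact test on counts as deposited, and it was run on the calls before scaling instead. The minimum of 30 applies to the deposited coverage, so the fewest calls before scaling were 26. The deposited β-value of a window is a fraction computed by the authors. Coordinates are on hg38 as deposited. No per-sample column was left unused.

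Means, differences and counts were computed with Python (3.11.15), numpy (2.4.6), pandas (2.3.3), scipy (1.17.1) and numba (0.67.0). Counting intervals used the binomial variance of each window, and single windows Wilson intervals. Calls before scaling in all windows were 188844639 to 228919184 per library, which is not the whole library. On simulated data the test called 197 to 199 of 200 changed windows and 0 unchanged ones. This checks the running of the test and gives no rate of false calls in the real libraries. There, differences over the methylated windows had an SD of 4.0 to 4.95 percentage points, against 1.84 to 1.97 from counting alone. RefSeq promoters (GRCh38.p14) gave sequences and starts. Gene types came from GENCODE by gene ID. The members, gene lists and tests were chosen with earlier results of these data known. Genes named were list members with the most calls (at most 6 per list), for each chemical the 3 largest rises and falls with an adjusted p under 0.01, the largest ranges, the highest, lowest and nearest means and the most frequent names. Other germline and pluripotency windows were named after their values were seen. Alternatives were other thresholds of coverage and level, median in place of mean, autosomes only, pooled calls, log2 ratios, another reference and other ways to choose windows. Bands of level were first set by all 5 libraries and then, after seeing the data, by the 3 outside each comparison.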

Additional observations from a re-analysis of the deposited data

How the results depend on the processing

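With 1 library per condition, no spread between replicates was available, and no paired analysis was possible because each condition had 1 library. The mean differences of etoposide, theophylline and 5-aza-dc kept their sign under every alternative run, whereas that of propyl gallate turned to -0.116 percentage points in windows lying wholly in an island (an overlap of 1000 bases, added after seeing the data). With that overlap the others were 0.239 for etoposide, 0.336 for theophylline and -1.66 for 5-aza-dc. By level, setting the bands by the 3 libraries outside the comparison (added after seeing the data) turned etoposide at 95% or more from 0.227 to -0.0037 and propyl gallate at 70% to 80% from -0.29 to 0.195, and moved 5-aza-dc at 95% or more from -0.277 to -0.828. The number of methylated windows was between 2259 and 2643 under other minimums of level or coverage, and fell to 1397 with an island overlap of at least 500 bases and to 364 with a RefSeq start in the window (both added after seeing the data). The mean difference in percentage points moved for etoposide to 0.553 with a RefSeq start. It moved for propyl gallate to 0.264 with the larger overlap and 0.314 with a RefSeq start, and for theophylline to 0.72 at a coverage of 100 and 0.914 against the mean of the other 4 libraries. For 5-aza-dc it was -1.41 at a level of at least 60%, -1.19 at 80%, -1.18 as a median, -1.73 against the other 4 libraries, -1.23 with the larger overlap and -1.70 with a RefSeq start. As a mean log2 ratio the differences were -0.023 for 5-aza-dc, 0.0072 for etoposide, 0.013 for theophylline and 0.0060 for propyl gallate, on another scale by construction. Apart from this, the cause was not tested.

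Windows called by Fisher's exact test, higher and lower, with the minimum difference lowered from 25 to 10 percentage points were 21 and 78 for 5-aza-dc, 30 and 24 for etoposide, 33 and 17 for theophylline and 26 and 23 for propyl gallate. At the minimum of 25 percentage points, dividing the calls by 10, for calls that are not independent molecules, left 0 in all 8 counts. At 25 percentage points and a coverage of 100, etoposide had 2 higher and 1 lower, propyl gallate 1 lower, and 5-aza-dc 2 higher and 1 lower. Windows in which a library lay below the other 4 were, with a gap of 25 percentage points, 1 for the vehicle control, 2 for 5-aza-dc, 1 for etoposide, 0 for theophylline and 2 for propyl gallate, and windows above were 1 for etoposide and 0 for theophylline and 5-aza-dc. At a coverage of 100 those below were 7 for propyl gallate, 4 for etoposide and 3 for the vehicle control, and those above 3 for etoposide and 0 for theophylline. With genes assigned by RefSeq starts, the methylated share was 6.06% for imprinted genes, 12.5% for pluripotency genes, 50% for cancer-testis families, 1.66% for developmental transcription factors and 50% for olfactory receptors. The sequence of the windows themselves was not analysed here, and RefSeq promoters took its place. A coverage of at least 100 in every library was reached by 2351 of the 2498 windows.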
